A study of Homo sapiens with 9 samples.

Results

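Kallikrein-related peptidases KLK5, KLK6, KLK7, KLK8, KLK9, KLK10, KLK11, KLK12, KLK13 and KLK14 were followed across RNA-seq libraries of MCF-10A cells, an immortalised, non-tumorigenic human breast epithelial line. The 10 genes lie side by side on chromosome 19 and were picked by symbol from the 60609 genes counted, and all 10 were found in both deposited count tables. The study compared parental MCF-10A (WT) with isogenic lines that carry a knock-in of PIK3CA E545K, in the helical domain of the catalytic subunit of PI 3-kinase, or of PIK3CA H1047R, in its kinase domain. Each genotype had 3 libraries, and all 3 comparisons between genotypes were made. WT cells were kept with 20 ng/ml EGF and both knock-in lines with 0 ng/ml. All 3 lines otherwise received 5% horse serum, insulin, hydrocortisone and cholera toxin, and for the last 24 h all were held in the same medium, without phenol red, with 1% charcoal-stripped serum and 0.2 ng/ml EGF. The sources used here do not give the number of clones behind each knock-in line or whether the libraries of a genotype are separate cultures. The p-values below therefore speak only of the scatter among these libraries, which may be technical.

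Kallikreins are secreted serine proteases, made as inactive proenzymes that are switched on by removal of a short propeptide. In the outer epidermis they act as a cascade: KLK5 activates itself and other kallikreins, and active KLK5, KLK7 and KLK14 cut the desmosomal proteins that hold dead cells together, so that these cells are shed. LEKTI, the product of SPINK5, holds the cascade in check, and in breast tissue several kallikreins are known as epithelial products whose levels change in tumours.

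In every WT library the 10 genes together were close to silent, and in both knock-in lines they were more abundant. Their summed level was 3.40, 2.98 and 2.14 CPM (counts relative to library size, with library sizes scaled by TMM, a correction for composition) in WT. It was 17.3, 17.6 and 18.1 CPM in the E545K line and 321, 275 and 254 CPM in H1047R. The sums of the 3 genotypes did not overlap. As a share of all deposited counts the family was 0.000212% to 0.000336% of each WT library and 0.0255% to 0.0296% of each H1047R library. The rise was not shared by all members. KLK5, KLK7, KLK8, KLK10, KLK13 and KLK14 rose in both knock-in lines, and KLK11 rose in H1047R. The KLK13 call in E545K rested on 12, 4 and 4 counts and was lost in 4 of 18 alternative settings. KLK6 and KLK9 did not pass the test in any comparison, and KLK12 was too low to test.

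The genes all lie on the minus strand within chr19:50943303-51084245 (hg38, gene bounds as in the deposited tables), in numerical order from KLK5 to KLK14. The promoters of KLK5 and KLK7, the members that rose most in E545K and in H1047R, are shown beside that of KLK6, which lies between them and did not pass the test. Each is the 250 bases before the gene's start, from RefSeq (GRCh38.p14, minus strand), at chr19:50953039-50953288 for KLK5, chr19:50969592-50969841 for KLK6 and chr19:50983918-50984167 for KLK7. Capitals mark bases that match, on either strand, the core of the TATA box (letters TATAA), the GC box (letters GGGCGG) or the CACCC box (letters CCACCC).

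KLK5: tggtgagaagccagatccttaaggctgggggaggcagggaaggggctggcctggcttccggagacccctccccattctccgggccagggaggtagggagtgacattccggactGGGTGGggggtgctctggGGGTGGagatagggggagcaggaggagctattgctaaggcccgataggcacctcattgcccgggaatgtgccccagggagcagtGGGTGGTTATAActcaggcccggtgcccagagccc
KLK6: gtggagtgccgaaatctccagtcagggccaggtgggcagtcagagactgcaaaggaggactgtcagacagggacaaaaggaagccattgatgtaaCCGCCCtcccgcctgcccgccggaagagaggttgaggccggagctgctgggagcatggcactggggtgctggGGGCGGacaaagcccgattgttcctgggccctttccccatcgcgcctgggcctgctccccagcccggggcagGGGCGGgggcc
KLK7: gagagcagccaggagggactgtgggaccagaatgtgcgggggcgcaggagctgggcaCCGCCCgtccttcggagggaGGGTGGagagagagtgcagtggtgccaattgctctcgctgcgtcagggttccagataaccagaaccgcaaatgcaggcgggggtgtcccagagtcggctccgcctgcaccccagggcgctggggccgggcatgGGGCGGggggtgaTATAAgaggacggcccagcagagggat

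TATAA stands on the gene's own strand with its first base at position -28 of KLK5 and -27 of KLK7, counted from the start. In KLK5 a CACCC box match on the opposite strand, with its first base at -35, adjoins a TATAA match on the opposite strand at -29. KLK6 has no TATAA in its window, and neither do KLK10, KLK11 and KLK13, which rose. A TATAA on that strand with its first base between -35 and -20 was found in 2 of the 9 members that matched a RefSeq promoter and in 3.7% of all 35116 promoter windows. KLK8 was not matched. Over the full windows of 300 bases (250 before the start and 50 after), TATAA on either strand was in 3 of 9 members against 20.4% of all windows, the third being KLK14 at -207 on the opposite strand. The GC box was in 6 of 9 members (45% of all windows) and the CACCC box in 5 of 9 (34.3%). Of the 6 matched members that rose in a comparison, 4 held the GC box and 4 the CACCC box; of KLK6 and KLK9, which did not pass, both held the GC box and neither the CACCC box. AP-1 sites (TGANTCA, both strands) were in 0 of 9 members against 7.7% of all windows, Grainyhead sites (AACNGGTT) in 0 of 9 against 1.7%, and C/EBP sites (TTNCNNAA) in 3 of 9 against 36.8%. The steroid half-site AGAACA and the nuclear receptor half-site AGGTCA were each in 0 of 9 members, against 14.8% and 13.8% of all windows. All 9 windows had a ratio of observed to expected CpG of 0.136 to 0.536, below the median of all windows (0.579), although their GC content ran from 54.7% to 69.3% around the median of 58.7%.

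Depth and library spread bear on how low members can be read. Total counts per library were 95091894 to 136132315 in WT and E545K and 377093507 to 605972919 in H1047R, with the mates of a pair counted separately, so 3 counts (the limit that a count of 0 allows) equal 0.0210 to 0.0318 CPM in the first and 0.00520 to 0.00863 CPM in the second, on the TMM scale. Those limits, and the intervals on ratios of counts given below, cover counting error only and treat the mates of a pair as independent, which makes them too narrow. The H1047R libraries were counted in a table of their own and differed more among themselves (edgeR's common biological coefficient of variation 0.215, against 0.0328 in WT and 0.0288 in E545K). The main test estimates spread over all 3 genotypes at once (0.118 pooled). H1047R scatter thus enters the errors for E545K against WT, and the errors for H1047R may be too small. The table, its depth and the H1047R genotype cannot be told apart, nor can long-term EGF and knock-in against WT. PIK3CA itself was at 43.9, 46.5 and 47.9 CPM in WT, 39.1, 37.7 and 37.4 in the E545K line and 42.4, 43.9 and 41.7 in H1047R, and these counts do not show which allele was read. All 9 basal epithelial markers checked were at 1 CPM or more in every genotype, with a sum of 31825 to 40362 CPM. All 5 general epithelial markers were too, but their sum was 6408 to 6511 CPM in WT, 4267 to 4348 in E545K and 2039 to 2443 in H1047R. The sum thus moved opposite to the kallikreins, but not all of its genes did. KRT7, its largest part, had means of 4493, 3395 and 1204 CPM in WT, E545K and H1047R, and KRT18 fell in the same order. EPCAM and KRT8 had their lowest mean in E545K. CDH1 was at 548, 399 and 606 CPM, highest in H1047R. The part of these markers in the kallikrein results was not tested. Of the markers of other cell types, 1 of 6 fibroblast, 1 of 4 endothelial, 1 of 5 leukocyte and 2 of 4 melanocyte genes reached 1 CPM in each genotype, with sums of at most 71.7, 23.6, 11.4 and 7.52 CPM. In bulk RNA, more cells with a gene and more RNA per cell cannot be told apart.

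**Figure D1:**
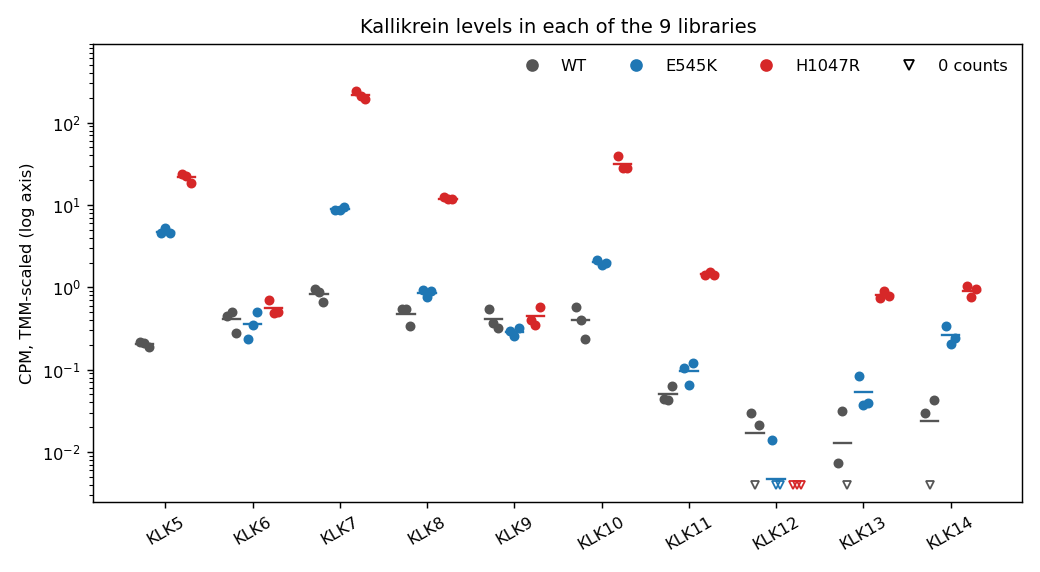
Level of each kallikrein in each of the 9 libraries, in TMM-scaled CPM on a log axis; points are libraries, short lines are genotype means, and open triangles stand for libraries with 0 counts. KLK7 spans the widest range, from 0.658 CPM in a WT library to 242 CPM in an H1047R library, while KLK6 and KLK9 stay within 0.238 to 0.708 CPM throughout.

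KLK5, the trypsin-like protease placed at the head of the epidermal cascade (ENSG00000167754.13, chr19:50943303-50953093), was at 0.216, 0.211 and 0.191 CPM in WT. It was at 4.54, 5.20 and 4.51 CPM in E545K and at 23.8, 22.5 and 18.5 CPM in H1047R. The 3 genotypes formed 3 separate bands with no overlap. KLK5 rose by 4.52 ± 0.16 on the log2 scale (SE) in E545K against WT (edgeR quasi-likelihood test with Benjamini-Hochberg adjustment over 26412 genes, adjusted p = 1.73e-11). In H1047R it rose by 6.70 ± 0.14 against WT (edgeR adjusted p = 2.70e-14) and by 2.19 ± 0.09 against E545K (edgeR adjusted p = 6.92e-11). Its rise in E545K was the 41st largest of all genes tested and its rise in H1047R the 28th largest.

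KLK14, a trypsin-like protease that can activate KLK5 and other proenzymes (ENSG00000129437.10, chr19:51077495-51084245), had 4, 0 and 4 counts in WT. It had 49, 22 and 24 counts in the E545K line and 357, 436 and 495 in H1047R, or 0.204 to 0.343 CPM and 0.755 to 1.03 CPM. Every knock-in library was above every WT library and every H1047R library above every E545K library. The ratio of counts to WT, scaled for depth, was 10.9 in E545K (95% exact interval 5.33 to 26.1) and 36.0 in H1047R (18.2 to 83.6). The fitted change was 3.40 ± 0.51 in E545K (edgeR adjusted p = 9.14e-05), 5.18 ± 0.46 in H1047R (edgeR adjusted p = 1.86e-07) and 1.78 ± 0.33 between the knock-in lines (edgeR adjusted p = 0.000309). KLK14 passed the filter on low counts through its knock-in libraries only.

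KLK7, the chymotrypsin-like enzyme of the same cascade (ENSG00000169035.12, chr19:50976468-50984099), was at 0.966, 0.867 and 0.658 CPM in WT. It was at 8.62, 8.79 and 9.53 CPM in E545K and at 242, 208 and 192 CPM in H1047R. Groups did not overlap, and the lowest H1047R library was far above the highest E545K library. The log2 change was 3.41 ± 0.12 in E545K (edgeR adjusted p = 3.23e-11), against 7.98 in H1047R, the 14th largest rise there. Between the knock-in lines KLK7 differed by 4.57 ± 0.09 (edgeR adjusted p = 2.67e-14), or 23.8-fold. None of its exon bases overlap another gene.

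KLK8, a trypsin-like protease of skin and brain also called neuropsin (ENSG00000129455.15, chr19:50996007-51002711), was at 0.542, 0.550 and 0.339 CPM in WT. It was at 0.925, 0.759 and 0.907 CPM in E545K and at 12.4, 11.7 and 11.7 CPM in H1047R. The E545K libraries lay just above the WT libraries and the H1047R libraries well above both. The log2 change was 0.84 ± 0.16 in E545K (edgeR adjusted p = 0.000647), 4.62 ± 0.13 in H1047R (edgeR adjusted p = 6.13e-13) and 3.78 ± 0.12 between the knock-in lines (edgeR adjusted p = 3.75e-12). Reads over 40.1% of the KLK8 exon bases are shared with annotated KLK9 or with the KLK9 to KLK8 readthrough gene ENSG00000269741, since a read that overlaps several genes was counted for each.

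KLK10, first known as normal epithelial cell-specific 1 from breast epithelium (ENSG00000129451.12, chr19:51012739-51020175), was at 0.572, 0.402 and 0.233 CPM in WT. It was at 2.14, 1.89 and 1.97 CPM in E545K and at 39.1, 28.2 and 27.7 CPM in H1047R. The groups did not overlap, and H1047R replicate 1 was the highest of its group, as it was for KLK5, KLK6, KLK7, KLK8 and KLK14. KLK10 rose by 2.26 ± 0.24 in E545K (edgeR adjusted p = 2.60e-06) and by 6.23 in H1047R, a difference between the knock-in lines of 3.98 ± 0.16 (edgeR adjusted p = 3.46e-11). A 240-base antisense RNA gene, ENSG00000268739, lies wholly within KLK10 exons. Its counts went from 0.109 ± 0.0398 CPM (SD, n = 3) in WT to 0.650 ± 0.0548 in the E545K line and 10.4 ± 2.70 in H1047R, and without strand in the counting they cannot be told apart from KLK10 reads.

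KLK11, a trypsin-like member (ENSG00000167757.14, chr19:51022216-51028039), had 6, 4 and 6 counts in WT, 15, 7 and 12 in the E545K line and 490, 898 and 732 in H1047R. In CPM these were 0.0423 to 0.0636, 0.0648 to 0.120 and 1.41 to 1.56. The lowest E545K library was just above the highest WT library. KLK11 did not pass the test in E545K (0.96 ± 0.37, edgeR adjusted p = 0.0582), and there the count ratio was 1.96 with a 95% exact interval of 1.05 to 3.80. It passed in E545K when the fit was scaled by library totals only (1.05, edgeR adjusted p = 0.0353), among genes of at least 1 CPM in 3 libraries (0.97, edgeR adjusted p = 0.0429) and without E545K replicate 2 (1.16, edgeR adjusted p = 0.0336). In H1047R it rose by 4.86 ± 0.28 against WT (edgeR adjusted p = 1.51e-09) and by 3.91 ± 0.25 against E545K (edgeR adjusted p = 7.01e-09).

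KLK13, another trypsin-like member (ENSG00000167759.13, chr19:51055626-51065114), had 1, 3 and 0 counts in WT, 12, 4 and 4 in the E545K line and 255, 525 and 411 in H1047R. The H1047R libraries stood apart from all others, while E545K and WT differed by a handful of counts. In H1047R the ratio of counts to WT was 66.6 (95% exact interval 26 to 245) and the fitted change 5.97 ± 0.53 (edgeR adjusted p = 1.66e-07). In E545K the ratio was 4.61 (1.54 to 18.5) and the fitted change 2.12 ± 0.72 (edgeR adjusted p = 0.0325). That E545K call was lost without WT replicate 1 (1.78, edgeR adjusted p = 0.131), without WT replicate 3 (1.63, 0.10), without E545K replicate 1 (1.58, 0.179) and with counts halved to stand for pairs (2.09, 0.0877). Between the knock-in lines KLK13 differed by 3.85 ± 0.41 (edgeR adjusted p = 1.61e-06). KLK11 and KLK13, like KLK14, passed the filter through the groups where they were high.

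KLK6, a trypsin-like protease best known from the nervous system and from tumours (ENSG00000167755.15, chr19:50958631-50969673), was at 0.446, 0.507 and 0.276 CPM in WT. It was at 0.238, 0.352 and 0.498 CPM in E545K and at 0.708, 0.485 and 0.505 CPM in H1047R. All 3 genotypes overlapped. The log2 difference was -0.20 in E545K against WT (95% interval, from the SE and edgeR's degrees of freedom, -0.91 to 0.51, edgeR adjusted p = 0.700), 0.46 in H1047R against WT (-0.21 to 1.12, 0.230) and 0.65 in H1047R against E545K (-0.02 to 1.32, 0.0939). Those intervals exclude rises of the size seen for KLK5 and KLK7 on either side. The antisense RNA gene ENSG00000269495 overlaps 20.3% of KLK6 exon bases and 12.2% of those of KLK5. Its counts rose by 1.87 in the E545K line and 3.81 in H1047R against WT (edgeR adjusted p = 9.29e-06 and 7.20e-10). Of its own exon bases, 41.8% lie in KLK6 exons and 21.1% in KLK5 exons. Without strand in the counting, reads over these bases cannot be told apart from KLK6 or KLK5 reads.

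KLK9, the other chymotrypsin-like member (ENSG00000213022.6, chr19:51002508-51009634), was at 0.550, 0.370 and 0.318 CPM in WT. It was at 0.294, 0.259 and 0.319 CPM in E545K and at 0.403, 0.353 and 0.580 CPM in H1047R. WT overlapped both knock-in lines, and H1047R lay above E545K. The log2 difference was -0.52 in E545K against WT (95% interval -1.19 to 0.15, edgeR adjusted p = 0.226), 0.10 in H1047R against WT (-0.53 to 0.72, 0.802) and 0.62 in H1047R against E545K (-0.03 to 1.26, 0.0989). Of the KLK9 exon bases, 96.3% belong also to KLK8 or to the readthrough gene. The KLK9 count can thus include reads of those genes, and the level of KLK9 itself is uncertain and may be lower. Counts of that readthrough gene were at 0.714 ± 0.155 CPM in WT, 0.947 ± 0.0781 in the E545K line and 8.61 ± 0.592 in H1047R (SD, n = 3). Their log2 change was 3.57 in H1047R against WT (edgeR adjusted p = 1.19e-11). All exon bases of the readthrough gene lie in exons of KLK8 (38.6%) or KLK9 (71.9%), some of them in both. A read over KLK9 exons was counted for KLK9 too, and KLK9 was at 0.580 CPM or less in H1047R. Most counts of the readthrough gene there thus lay over KLK8 exons, where they cannot be told apart from KLK8 reads.

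KLK12, a trypsin-like protease (ENSG00000186474.15, chr19:51029092-51035230), had 4, 0 and 2 counts in WT, 2, 0 and 0 in the E545K line and 0 in all 3 H1047R libraries. It failed the filter on low counts in every genotype and was not tested. At the depth of the H1047R libraries, 0 counts allow at most 0.00520 to 0.00863 CPM. It was the member with no count in the deepest libraries, between KLK11 and KLK13, both of which rose there.

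Counted together, 6 of the 9 members tested rose and 0 fell in E545K against WT, where 17.7% of all genes tested rose and 18.9% fell. In H1047R against WT 7 rose and 0 fell (27.4% of all genes rose and 28.1% fell), and in H1047R against E545K 7 rose and 0 fell (25.9% of all genes rose and 27.3% fell). Rises of at least 2-fold were called for 5, 7 and 7 members in these comparisons, against 4.52%, 10.0% and 7.74% of all genes. Because KLK11, KLK13 and KLK14 entered the test through the knock-in libraries, the count that owes nothing to the filter is over the 6 members above its minimum in every library: 4 of these 6 (KLK5, KLK7, KLK8 and KLK10) rose in each comparison. The comparisons with WT share the WT libraries. The members, like the lists below, were chosen with earlier results of these data known. All these counts, also that over 6 members, are therefore description, and the shares of all genes beside them are no test of an excess. The groups did not overlap, with the first higher, for 7, 7 and 8 members, against 26.7%, 29.8% and 28.7% of all genes.

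**Figure D2:**
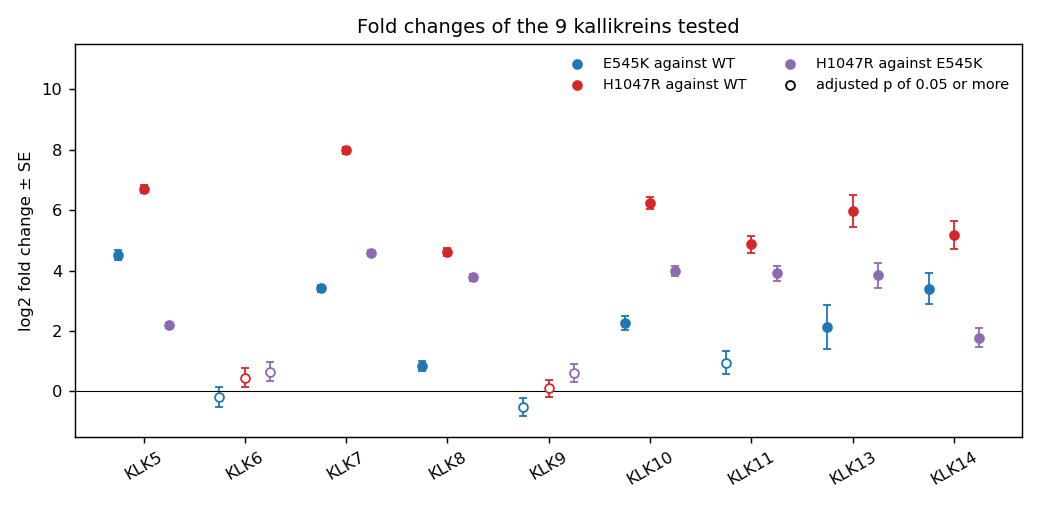
Fitted log2 fold change with its standard error for the 9 kallikreins tested, in each of the 3 comparisons; filled points passed adjusted p of 0.05 and open points did not. Among members that rose, KLK5 and KLK14 have the E545K change nearest to their H1047R change, KLK8 and KLK11 have a small change in E545K, and KLK6 and KLK9 are open throughout.

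KLK7 had the highest mean level in all 3 genotypes, further above KLK5 in H1047R than in E545K. Per kb of exon, the order in WT was KLK7 (0.339 ± 0.0643 CPM per kb, SD, n = 3), KLK9 (0.286), KLK8 (0.256), KLK6 (0.207), KLK5 (0.125) and KLK10 (0.106), with the other 4 at 0.0202 or less. The ranges of the first 4 overlapped from each to the next. In E545K, KLK7 (3.67 ± 0.197 CPM per kb) and KLK5 (2.87 ± 0.237) stood above the rest, with ranges that did not touch. They were followed by KLK10 (0.527), KLK8 (0.463) and then KLK14, KLK9 and KLK6 (0.220, 0.202 and 0.184), whose ranges overlapped. In H1047R the order was KLK7 (87.3 ± 10.4 CPM per kb), KLK5 (13.1 ± 1.65), KLK10 (8.34 ± 1.70), KLK8 (6.39 ± 0.221), KLK14 (0.766 ± 0.118) and KLK11 (0.468 ± 0.0274), each with a range above the next. Below them KLK13, KLK9 and KLK6 (0.314, 0.309 and 0.287) could not be ordered.

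As a share of the family's level per kb, KLK7 made up 24.8% ± 0.636 in WT, 44.8% ± 1.59 in the E545K line and 74.4% ± 0.148 in H1047R (SD, n = 3). The share of KLK5 was 9.31% ± 1.5, 35.1% ± 2.94 and 11.2% ± 0.679, so that it was highest in E545K. KLK6 went from 15.0% ± 2.64 to 2.23% ± 0.760 and 0.243% ± 0.0281, and KLK9 from 20.8% ± 2.66 to 2.46% ± 0.24 and 0.269% ± 0.0979, while their own levels did not pass the test. The share of KLK10 differed little, at 7.5% ± 1.71, 6.44% ± 0.528 and 7.07% ± 0.660.

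**Figure D3:**
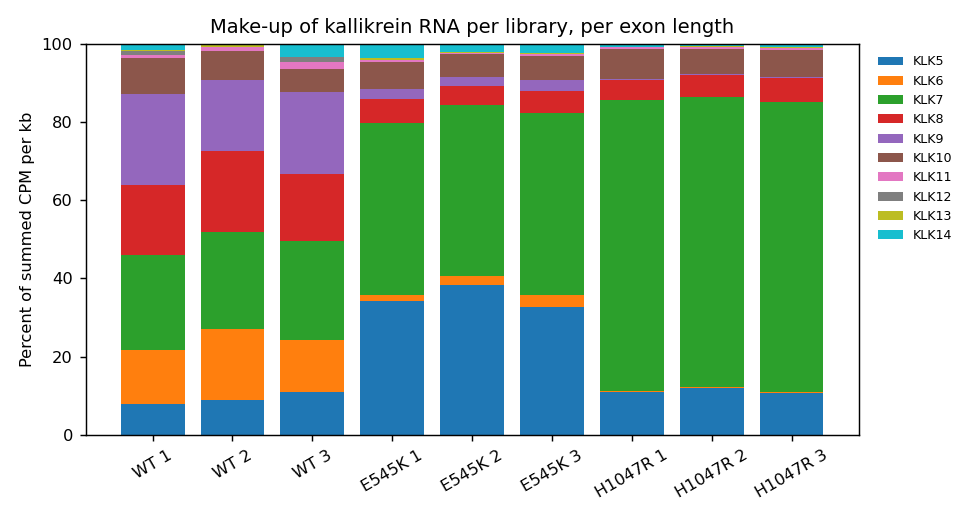
Make-up of kallikrein RNA in each library, as the percent of the summed CPM per kb of exon for each of the 10 genes, stacked to 100. The 3 libraries of a genotype look alike; KLK7 takes 74.4% of the H1047R bars on average and KLK5 35.1% of the E545K bars.

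Ratios of counts between members within a library do not depend on the scaling between libraries. KLK7 had 4.48, 4.10 and 3.44 counts per KLK5 count in WT, 1.90, 1.69 and 2.12 in the E545K line and 10.2, 9.23 and 10.3 in H1047R. E545K was thus below WT and H1047R above it, with no overlap. The ratio of KLK10 to KLK8 was 1.05, 0.731 and 0.688 in WT, 2.32, 2.49 and 2.18 in the E545K line and 3.16, 2.41 and 2.38 in H1047R. Here both knock-in lines lay above WT and overlapped each other. Over 7 such ratios and 3 comparisons, exact two-sided permutation tests gave p = 0.1, the smallest that 3 against 3 libraries allow, in all but the ratio of KLK10 to KLK5 in H1047R against WT (exact p = 0.5) and that of KLK10 to KLK8 between the knock-in lines (exact p = 0.4). Adjusted over the 21 tests, the first of these values is 0.111, so no ratio could pass at this size of design.

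The tested protein-coding genes nearest to KLK5 to KLK14 on either side, kallikreins aside, did not pass the main test as higher in either line against WT. The nearest tested protein-coding gene beyond KLK14 is CTU1, a tRNA-modifying enzyme (chr19:51097606-51108409), which was at 11.7 ± 0.930 CPM in WT, 10.6 ± 0.483 in the E545K line and 8.21 ± 0.448 in H1047R (SD, n = 3). CTU1 had a log2 difference of -0.15 in E545K against WT (edgeR adjusted p = 0.113) and fell by 0.52 in H1047R against WT (edgeR adjusted p = 1.36e-05). Every E545K library of CTU1 was below every WT library. CTU1 passed there as lower with limma-voom (-0.17, adjusted p = 0.0281) and with only the 2 genotypes compared (-0.15, edgeR adjusted p = 0.0247). On the other side, past the remaining kallikreins, ACP4, an acid phosphatase (chr19:50790415-50795219), had a log2 difference of 0.59 in E545K (edgeR adjusted p = 0.113) and of -0.31 in H1047R (edgeR adjusted p = 0.357). Every E545K library of ACP4 was above every WT library, and ACP4 passed there as higher with limma-voom (0.58, adjusted p = 0.0229), with only the 2 genotypes compared (0.59, edgeR adjusted p = 0.00991) and without H1047R replicate 1 (0.59, edgeR adjusted p = 0.0195). Among 57 tested genes within 1 Mb, with kallikreins and genes that share their exons left out, 4 rose and 10 fell in E545K against WT. In H1047R against WT 17 rose and 15 fell, and in H1047R against E545K 21 rose and 10 fell. Those rising shares were 7.02%, 29.8% and 36.8%, beside 17.7%, 27.4% and 25.9% of all genes tested.

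Of the other kallikreins of the cluster, KLK1 alone was tested. KLK1, the classical tissue kallikrein that releases kinins, was at 0.372, 0.296 and 0.403 CPM in WT, 0.491, 0.527 and 0.578 in the E545K line and 0, 0.0277 and 0.00768 in H1047R. It was thus low everywhere and nearly absent from H1047R. It fell by 4.72 ± 0.62 in H1047R against WT (edgeR adjusted p = 1.17e-05) and by 5.30 ± 0.63 against E545K (edgeR adjusted p = 4.66e-06), while E545K and WT differed by 0.57 ± 0.51 (edgeR adjusted p = 0.428). KLK2, KLK3, KLK4, KLK15 and the pseudogene KLKP1 were below 0.1 CPM in every library and were not tested. KLK3, a chymotrypsin-like protease known as prostate-specific antigen, had 2, 0 and 0 counts in WT, 2, 4 and 2 in the E545K line and 8, 56 and 28 in H1047R, a ratio of counts to WT in H1047R of 10.3 (95% exact interval 2.77 to 86.3). Every H1047R library of KLK3 was above every WT library, and KLKP1 had 2, 6 and 2 counts in H1047R and 0 in the other 6 libraries. KLKB1, plasma kallikrein, which is encoded elsewhere in the genome, fell by 1.57 in H1047R against WT (edgeR adjusted p = 1.00e-05) and by 1.96 against E545K (edgeR adjusted p = 1.10e-06).

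**Figure D4:**
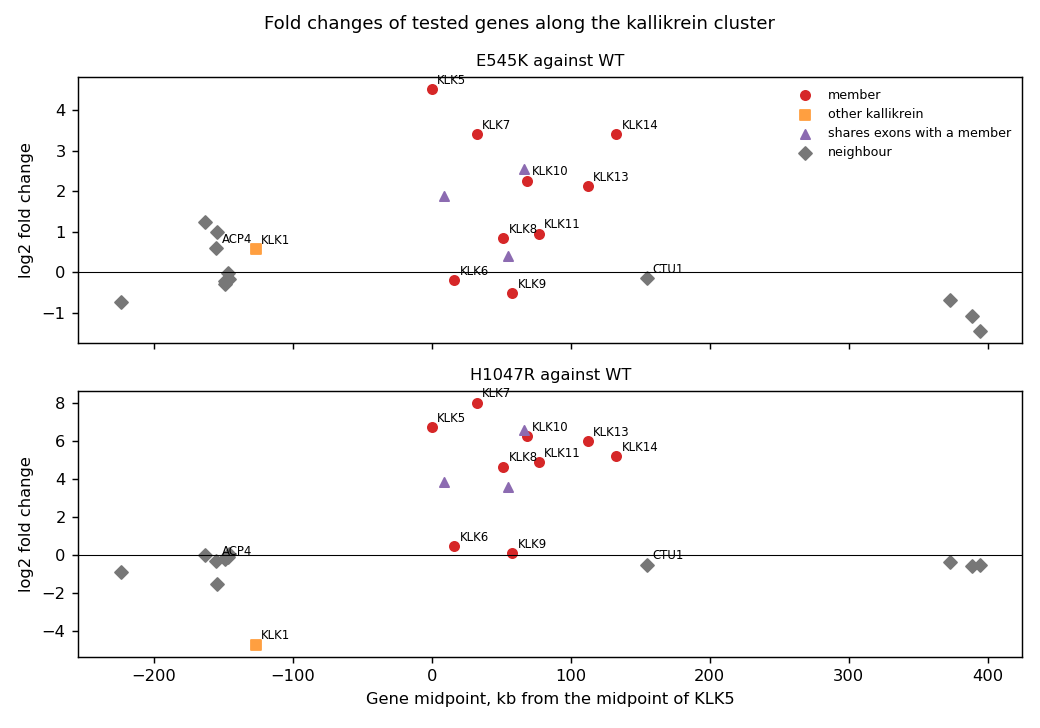
Log2 fold change of tested genes along the kallikrein cluster, against the distance of each gene's midpoint from that of KLK5 in kb, for E545K against WT (top) and H1047R against WT (bottom). High points lie between KLK5 and KLK14, with KLK6 and KLK9 near 0 among them; CTU1 and ACP4 outside the cluster are near 0, and KLK1 is at -4.72 in the lower panel.

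Inhibitors of the kallikreins moved in both directions, and 11 of the 13 listed were tested. In E545K against WT 4 rose and 4 fell with a median log2 change of -0.03 (all genes tested: 17.7% rose and 18.9% fell, median 0.00). In H1047R against WT 5 rose and 4 fell with a median of 0.19 (27.4% and 28.1%, 0.02), and in H1047R against E545K 6 rose and 2 fell with a median of 0.95 (25.9% and 27.3%, 0.02). SPINK5, which encodes LEKTI, the main inhibitor of KLK5, KLK7 and KLK14, was at 0.290, 0.222 and 0.403 CPM in WT, 2.31, 2.29 and 2.22 in the E545K line and 1.45, 1.27 and 1.07 in H1047R. It was thus highest in the line with the smaller kallikrein rise: it rose by 2.90 ± 0.21 in E545K (edgeR adjusted p = 4.00e-08) and by 2.05 ± 0.20 in H1047R (edgeR adjusted p = 5.74e-07) against WT, and fell by 0.85 ± 0.17 from E545K to H1047R (edgeR adjusted p = 0.000654). PI3 (elafin), an inhibitor of neutrophil elastase and related enzymes, was at 1.07, 1.06 and 1.08 CPM in WT, 0.743, 0.518 and 0.598 in the E545K line and 31.7, 24.5 and 24.2 in H1047R. PI3 rose by 4.65 ± 0.13 in H1047R against WT (edgeR adjusted p = 3.41e-13). A2ML1, a protease trap of the epidermis, went from 7.12 ± 0.518 to 24.4 ± 0.724 and 143 ± 14.9 CPM (SD, n = 3) and rose in all 3 comparisons. SLPI, which inhibits KLK7 among other proteases, went from 35.4 ± 0.896 to 68.2 ± 0.946 and 252 ± 30.7 CPM and also rose in all 3. SERPINA3, an inhibitor of chymotrypsin-like proteases, was higher by 1.94 ± 0.04 in H1047R than in E545K. SERPINA5, the protein C inhibitor, and SERPINA1 (alpha-1-antitrypsin) each fell in both knock-in lines against WT, and each fell further in E545K. The fall of SERPINA5 was 2.56 ± 0.10 in E545K, and that of SERPINA1 was 0.93 ± 0.16 in H1047R.

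Among proteases that can activate kallikreins, and the inhibitors of those proteases, 11 of 14 listed genes were tested and changes were small beside those of KLK5 and KLK7. In E545K against WT 2 rose and 6 fell with a median of -0.22 (all genes tested: 17.7% rose and 18.9% fell, median 0.00). Of the 11, 3 rose and 4 fell in H1047R against WT with a median of 0.02 (27.4% and 28.1%, 0.02), and in H1047R against E545K 5 rose and 4 fell with a median of 0.19 (25.9% and 27.3%, 0.02). PLAT, tissue plasminogen activator, was at 20.1 ± 0.646, 12 ± 0.113 and 6.5 ± 1.46 CPM (SD, n = 3) and fell by 0.75 in E545K and by 1.64 in H1047R against WT. TMPRSS11E, an epithelial membrane protease, fell by 0.68 and by 1.32 in the same comparisons. SPINT1, an inhibitor of matriptase, fell by 0.38 in E545K, where PLAU, urokinase, rose by 0.18. TMPRSS4 fell by 0.92 in H1047R against WT and by 1.23 against E545K, while TMPRSS13 rose by 0.64 and 0.86. The adjusted p of these calls (edgeR) ran up to 0.0016, and the largest size among them, 1.64, was below that of any kallikrein called in H1047R against WT.

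Of 10 listed substrates and receptors, 8 were tested. Of these 0 rose and 5 fell in E545K against WT with a median of -0.44 (all genes tested: 17.7% rose and 18.9% fell, median 0.00). In H1047R against WT 4 rose and 1 fell with a median of 0.26 (27.4% and 28.1%, 0.02), and in H1047R against E545K 5 rose and 1 fell with a median of 0.75 (25.9% and 27.3%, 0.02). DSG1, a desmosomal cadherin cut by KLK5, was at 0.0892, 0.127 and 0.106 CPM in WT, 0.0771, 0.185 and 0.120 in the E545K line and 0.921, 1.12 and 0.970 in H1047R. DSG1 thus stood apart in H1047R, where it rose by 3.24 ± 0.31 against WT (edgeR adjusted p = 3.85e-07). FLG, profilaggrin, rose by 1.16 in the same comparison. IL1B, whose precursor KLK7 can cut, was at 27.9, 29.6 and 30.5 CPM in WT, 9.97, 11.9 and 10.3 in the E545K line and 1.07, 1.23 and 1.12 in H1047R, the reverse order to the kallikreins. IL1B fell by 1.45 ± 0.07 in E545K and by 4.68 ± 0.08 in H1047R against WT (edgeR adjusted p = 8.99e-10 and 5.54e-15). F2R, the thrombin receptor, fell by 1.69 in E545K and was higher by 1.68 in H1047R than in E545K. CDSN, the corneodesmosome protein cut by KLK5, KLK7 and KLK14, fell by 0.52 in E545K (edgeR adjusted p = 0.0351), a call lost without WT replicate 1 or 3, without E545K replicate 1 or 3 (adjusted p of 0.0805 to 0.164) and under library totals.

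Genes of the granular layer, the last living layer of epidermis, where KLK5, KLK7 and KLK14 are normally made, gave more rises than falls, and 12 of 14 listed were tested. In E545K against WT 5 rose and 1 fell with a median log2 change of 0.32 (all genes tested: 17.7% rose and 18.9% fell, median 0.00). In H1047R against WT 9 rose and 0 fell with a median of 1.79 (27.4% and 28.1%, 0.02), and in H1047R against E545K 10 rose and 0 fell with a median of 2.66 (25.9% and 27.3%, 0.02). The 2 left untested for low counts, LORICRIN and TGM3, lay the other way, with 10 and 8 counts over the WT libraries, 10 and 8 over E545K and 2 each over the deeper H1047R libraries. Their ratios of counts to WT in H1047R, scaled for depth, were 0.0448 (95% exact interval 0.00477 to 0.210) and 0.0560 (0.00579 to 0.280). CASP14, a protease of cornification, was at 0.431, 0.296 and 0.339 CPM in WT, 3.70, 4.15 and 4.31 in the E545K line and 164, 185 and 186 in H1047R, an order close to that of KLK7. KRT10, a keratin of suprabasal cells, went from 16.2 ± 0.604 to 19.6 ± 0.565 and 281 ± 41.5 CPM, and its partner KRT1 rose by 4.88 ± 0.23 in H1047R against WT (edgeR adjusted p = 1.79e-10). ABCA12, a lipid transporter of lamellar granules, rose by 1.28 in E545K and by 2.13 in H1047R against WT. It was higher by 0.85 in H1047R than in E545K, and CALML5 was higher by 4.07 in that comparison. LCE3D fell by 2.75 in E545K from 0.0983 ± 0.0533 CPM in WT.

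Steroid and nuclear receptors, listed because steroid hormones are known to act on several kallikreins, gave 1 rise and 5 falls among 10 tested in E545K against WT with a median of -0.34 (all genes tested: 17.7% rose and 18.9% fell, median 0.00). There were 3 rises and 4 falls in H1047R against WT with a median of -0.23 (27.4% and 28.1%, 0.02), shares near those of all genes, and in H1047R against E545K 5 rises and 2 falls with a median of 0.11 (25.9% and 27.3%, 0.02). ESR1, the oestrogen receptor, fell by 0.85 in E545K and by 0.39 in H1047R against WT. VDR, the vitamin D receptor, rose by 0.55 and 0.52 in the same comparisons. NR3C2, the mineralocorticoid receptor, rose by 1.07 in H1047R against WT, and ESR2 was lower by 1.03 in H1047R than in E545K (log2 scale). PGR, the progesterone receptor, was at 0.929 CPM in WT replicate 1 and at 0.106 or less in the other 8 libraries apart from 0.140 and 0.120 in E545K. It fell by 5.10 in H1047R against WT (edgeR adjusted p = 0.00117), which limma-voom with weights by genotype did not call (adjusted p = 0.0812), and by 3.21 without WT replicate 1 (edgeR adjusted p = 0.0304).

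**Figure D5:**
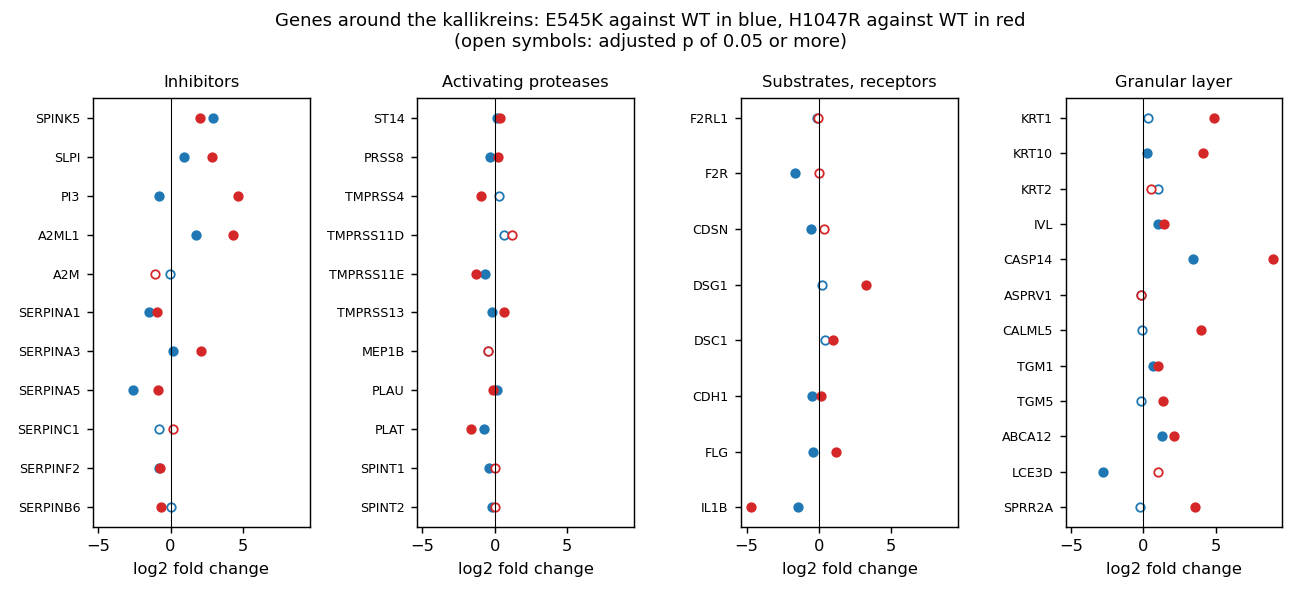
Log2 fold changes of listed genes around the kallikreins, for E545K against WT in blue and H1047R against WT in red, with open symbols where the adjusted p was 0.05 or more. SPINK5 is further right in blue than in red, CASP14 is the rightmost red point at 8.93, and IL1B is the leftmost at -4.68.

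For the 4 members that reached 10 CPM in a genotype, the protein-coding genes with the most similar pattern were sought among 9958 genes that also reached it. Likeness was the root mean square difference, over the 9 libraries, of log2 CPM minus the gene's WT mean. CLDN1, a tight junction protein, was nearest to KLK5 (0.291), with 0.985 CPM in WT, 30.3 in the E545K line and 97.4 in H1047R on average. It was followed by PCLO (1.09) and SLC16A4 (1.12), both further from KLK5 than was KLK7 (0.991). CASP14 was nearest to KLK7 (0.579), ahead of ATP13A4 (0.672) and S100A8 (1.06), a calcium-binding protein of stressed epithelium. RARRES1 (0.356), the keratin KRT16 (0.364) and HECW2 (0.370) were nearest to KLK8, and no kallikrein came closer than KLK10 at 1.32. IGFL1 (0.382), the peptide transporter SLC15A2 (0.578) and S100A9 (0.682) were nearest to KLK10, and KLK7, its closest kallikrein, was at 1.16. Each of the 4 thus had at least 1 gene outside the cluster nearer to it in pattern than the other 3 were. With 9958 genes searched against 3 other members, the pools are too unequal for this to say how alike the members are. With genes of at least 1 CPM searched, CLDN1 alone of the 3 named for KLK5 stayed among its nearest 3.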

How the data were processed

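RNA of 3 WT, 3 E545K and 3 H1047R MCF-10A samples was depleted of ribosomal RNA and sequenced as 150-base pairs, per the labels' protocols. The authors deposited raw counts per gene from featureCounts 2.0.0 on hg38 with GENCODE 32, without strand, with each mate counted by itself and a read counted for every gene it overlaps, per the file headers; WT and E545K share one table and H1047R has another. The submitters' processing notes also name STAR, SAMtools 1.5, FastQC and Trim Galore 0.4.0 with cutadapt. Symbols came from GENCODE 44 by identifier (60295 of 60609 matched).

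Counts were filtered (filterByExpr), TMM-scaled and tested in R 4.3.3 with edgeR 4.0.16 (quasi-likelihood) in 1 model of genotype over 9 libraries, with Benjamini-Hochberg adjustment over 26412 genes and a threshold of 0.05. Standard errors are the log2 change over the square root of F. The steps were tested on simulated data. Alternatives were other filters, scalings and gene sets, DESeq2 1.42.0, limma-voom 3.58.1 with weights by genotype, 2-genotype fits, halved counts, the replicate number as a block and leaving out each library. Exact intervals are Clopper-Pearson at 95%.

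Members and lists were chosen with earlier results of these data known. All 10 members and PIK3CA are named, as are, per list and comparison, up to 3 called genes with the largest change and the most changed in the other direction, the 3 nearest genes in pattern and the flanking tested genes. A gene of the receptor list is not reported here by name, though the list's counts and medians include it.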

Additional observations from a re-analysis of the deposited data

How the results depend on the processing

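Over 20 alternative settings, 515 of 526 values of the 27 kallikrein fold changes kept their direction and their side of the threshold. The exceptions beyond those given for KLK11 and KLK13 were all in KLK6 and KLK9: with a library left out, KLK6 in E545K against WT ran from -0.491 (without E545K replicate 3) to 0.0426 (without E545K replicate 1), KLK9 in H1047R against WT from -0.140 (without H1047R replicate 3) to 0.369 (without WT replicate 1), being -0.0584 without WT replicate 3, and KLK6 in H1047R against E545K passed without E545K replicate 3 (0.95, edgeR adjusted p = 0.0375). The cause was not tested. Members called ranged from 5 to 7 in E545K against WT with a library left out, were 7 throughout in H1047R against WT and ranged from 7 to 8 in H1047R against E545K. Under the filter of 1 CPM in 3 libraries 5 were called in each comparison with H1047R, since fewer members were tested. Of 2099 alternative values for other named genes 2054 kept direction and side; PCLO in H1047R against E545K was -0.0511 under library totals and from -0.0411 (without H1047R replicate 3) to 0.168 (without H1047R replicate 1) with a library left out. Without TMM, by library totals only, 66.1% of called genes were higher in E545K against WT (48.3% with TMM) and 33.2% in H1047R against E545K (48.7% with TMM), with medians over all genes of 0.10 and -0.12; no kallikrein changed direction. Pairing was checked because replicate numbers recur across genotypes. Correlations of the deviations of same-numbered libraries were -0.0348 to 0.0227, beside -0.0245 to 0.0418 for differently numbered ones. No deviation shared by number was thus seen, which cannot show whether same-numbered libraries were handled together. With the replicate block 6, 7 and 7 members and 9441, 14394 and 13731 genes were called. Depth limits KLK11 to KLK14 in WT, with at most 6 counts a library, and KLK12 and KLK13 in E545K, with at most 12.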
